A study of Homo sapiens with 12 samples.

Results

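GABRP, GABRE, GABRA3 and GABBR1 are 4 of the 23346 genes listed in an RNA-seq table of sorted pancreatic adenocarcinoma cells, and each encodes a subunit of a receptor for the inhibitory transmitter GABA. They were found by their symbols and were selected on their expression in these same samples, with GABRP picked because its level went up with the sort in one cell line and down in the other. Their levels and differences are therefore described and not tested. Tests are given only for the other genes of the GABA pathway and for genes that lie close by.

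The cells were SW1990 and CFPAC-1, both established human lines, each derived from 1 tumour. Each line was stained with the monoclonal antibody GCTM-5 and sorted into GCTM-5 positive and GCTM-5 negative cells. The study describes its surface antigen as related to Sialyl Lewis A and found on foetal ductal progenitors and pancreatic adenocarcinoma. In the non-malignant adult pancreas, the study saw it mainly in some cells of the interlobular ducts. The gates took strongly positive and negative cells, so cells of intermediate staining are in neither population. There were 3 samples from repeated sorts in each of the 4 groups, 12 in all, and no drug or genetic change was named for any of them. No source used here says whether the sorts came from separate cultures, so every p-value measures the spread between these sorts.

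GABA-A receptors are pentameric chloride channels assembled from a large family of subunits, of which alpha and beta subunits make up the usual neuronal core. The pi subunit, encoded by GABRP, is found mainly in epithelia and the reproductive tract, and the epsilon subunit (GABRE) and alpha-3 subunit (GABRA3) are neighbours on the X chromosome. The GABA-B receptor is unrelated in structure, a G protein-coupled dimer of the products of GABBR1, which binds GABA, and GABBR2, which carries the protein to the surface and couples it to Gi and Go proteins.

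On GRCh37 (GENCODE 44) GABRP lies on chromosome 5 at 170190354 to 170241051 on the plus strand. The other 3 are on the minus strand, GABRE on X at 151121596 to 151143152, GABRA3 on X at 151334706 to 151619787, and GABBR1 on chromosome 6 at 29523406 to 29601753. RefSeq promoters (GRCh38.p14, from 250 bases before to 50 after the start) were matched for 3 of the 4 genes. Those of GABRP and GABRE are printed because these genes moved the most between sorts and their starts are built differently. Capitals mark the GC box GGGCGG and the E-box CACCTG, read on both strands.
GABRP, chr5:170783475-170783774, plus strand: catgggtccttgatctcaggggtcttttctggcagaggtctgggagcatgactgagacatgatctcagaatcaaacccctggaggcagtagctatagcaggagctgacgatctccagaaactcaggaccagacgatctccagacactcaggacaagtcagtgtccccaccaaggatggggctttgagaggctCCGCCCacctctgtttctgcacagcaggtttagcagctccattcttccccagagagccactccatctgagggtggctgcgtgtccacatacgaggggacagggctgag
GABRE, chrX:151974627-151974926, minus strand: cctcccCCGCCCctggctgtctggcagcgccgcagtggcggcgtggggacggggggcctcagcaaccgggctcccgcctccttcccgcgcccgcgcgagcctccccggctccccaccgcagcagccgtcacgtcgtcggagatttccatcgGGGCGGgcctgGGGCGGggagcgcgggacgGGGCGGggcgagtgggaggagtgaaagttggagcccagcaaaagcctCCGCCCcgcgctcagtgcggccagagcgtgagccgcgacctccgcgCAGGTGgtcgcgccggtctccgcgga
The GABRP promoter was 56.0% G and C and held 5 CG pairs and 1 GC box. The GABRE promoter was 76.7% G and C, with 41 CG pairs, 5 GC boxes and 1 E-box, and that of GABBR1 was 72.7% G and C, with 29 CG pairs, 5 GC boxes (1 pair overlapping) and 1 cAMP response element (TGACGTCA). The median over 34796 RefSeq promoters was 14 CG pairs. A GC box was in 44.9% of those promoters, the E-box in 20.6% and the cAMP response element in 1.8%. AP-1 (TGANTCA), grainyhead-like (AACNNGTT), SOX (ACAAAG) and TATA box (TATAAA) letters were not in these 3 windows. A single window was read per gene, and any other annotated start was not examined. No binding or methylation was measured here.

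Values are RPKM, reads scaled to the size of the library and to the gene's length, so that levels can be set side by side between genes. Library totals worked back from the values ran from 9969697 to 26159330 reads, and 16135 to 17224 genes were above 0 in a sample. Positive CFPAC-1 replicate 3 was the shallowest library and stood farthest from the others of its group, at a root mean square log2 distance of 0.535 against 0.272 to 0.411 for the other libraries. All 7 ductal epithelial markers were at 1 RPKM or more in every sample. Marker sums for other cell types mostly followed 1 gene each. They were highest in negative SW1990 cells for neurons (15.9 to 21.0 RPKM, with SNAP25 at 15.0 to 19.9), endothelium (14.8 to 18.8, with CDH5 at 14.2 to 17.7) and fibroblasts (12.7 to 22.6, with LUM at 7.31 to 17.6), and in CFPAC-1 cells for leukocytes (42.8 to 76.9, with LYZ at 42.8 to 76.9). In bulk RNA, fewer cells of a type and less RNA per cell cannot be told apart.

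GABRP, the pi subunit, had the widest range of the receptor genes. In negative SW1990 cells it was at 0.147, 0.325 and 0.632 RPKM (10, 25 and 37 reads), and in positive SW1990 cells at 3.89, 10.4 and 16.9 RPKM (250, 585 and 990 reads). Every positive sample lay above every negative one, although samples of the same group differed by up to 4.34-fold. The means were 0.368 ± 0.246 and 10.4 ± 6.50 RPKM (SD, n = 3), a 28.3-fold difference in means and 4.39 on the log2(RPKM + 0.1) scale. Leaving out single samples put the fold between 19.45 (without positive SW1990 replicate 3) and 44.1 (without negative SW1990 replicate 3).

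In CFPAC-1 the order was the opposite. GABRP was at 538, 935 and 947 RPKM in the negative samples and at 129.5, 249.9 and 161 RPKM in the positive samples. The groups did not overlap, and each value rested on 5313 reads or more. The means were 807 ± 233 and 180.2 ± 62.4 RPKM (SD, n = 3), 4.48-fold lower in positive cells, with a log2 difference of -2.17, or -2.12 without positive CFPAC-1 replicate 3. The log2 difference in SW1990 exceeded that in CFPAC-1 by 6.56.

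The level of GABRP in CFPAC-1 placed it among the most abundant transcripts by this measure. It ranked 20, 23 and 54 of 23346 genes in the negative CFPAC-1 samples and between 165 and 397 in the positive ones. In SW1990 it ranked between 4546 and 9827 in positive samples and between 13723 and 15359 in negative ones. The order of the groups was negative CFPAC-1, positive CFPAC-1, positive SW1990 and negative SW1990, with no overlap between neighbours. GABRP was 2192-fold lower in SW1990 than in CFPAC-1 among negative cells and 17.3-fold lower among positive cells. Among negative cells, leaving out single samples put the fold between 1686 (without negative SW1990 replicate 1) and 3421 (without negative SW1990 replicate 3). The summed ductal markers were 1630 to 1970 RPKM in SW1990 negatives and 4750 to 5150 RPKM in SW1990 positives. In CFPAC-1 the sums were 5910 to 6650 RPKM in negatives and 6930 to 8470 RPKM in positives. Single markers differed from the sum. MUC1 was higher in positive SW1990 cells (313 to 393 against 20.4 to 36.5 RPKM) and lower in positive CFPAC-1 cells (255 to 312 against 478 to 511). KRT19 and EPCAM overlapped between the CFPAC-1 sorts. KRT7, KRT8, KRT18 and CDH1 were higher in positive CFPAC-1 cells without overlap. The part of these markers in the GABRP values was not tested.

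**Figure D1:**
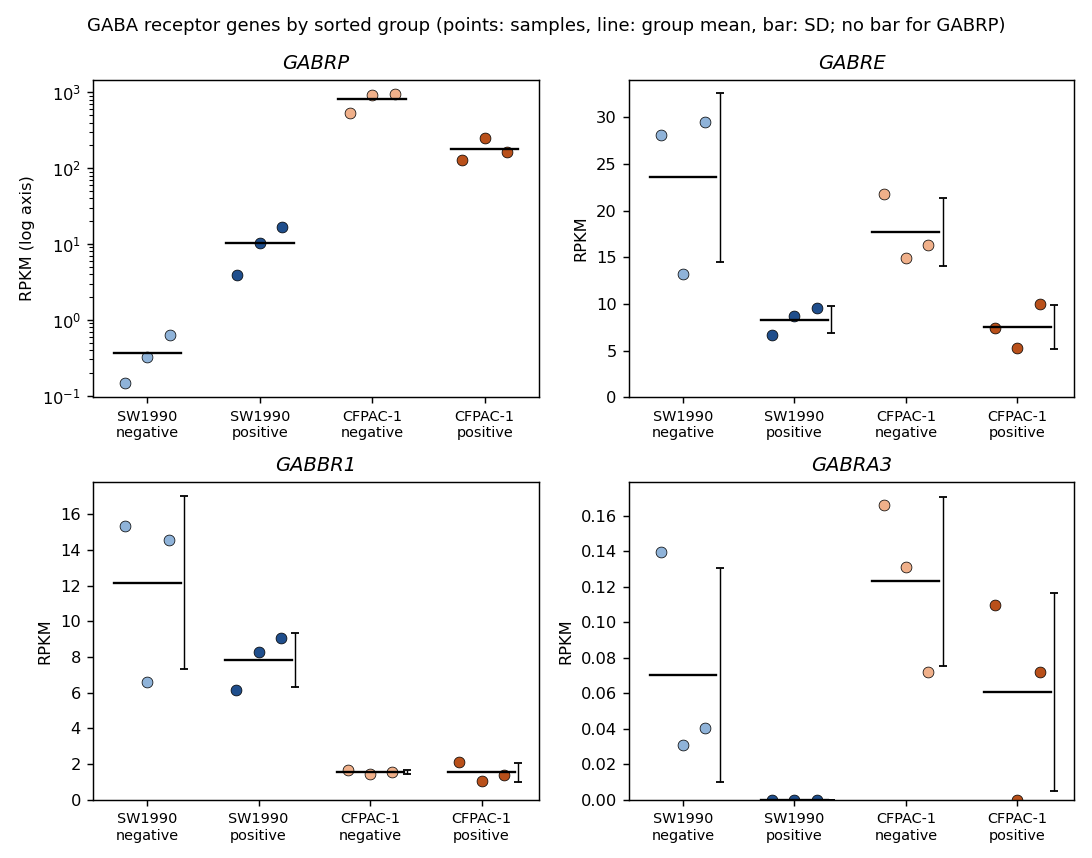
RPKM of the 4 receptor genes in each sample (points), with the group mean (line) and SD (bar, not drawn for GABRP, whose axis is logarithmic). GABRP spans 0.147 to 947 RPKM with 4 separate groups, GABRE is lower in the positive samples of both lines, GABBR1 separates the lines, and GABRA3 stays at or under 0.166 RPKM.

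GABRE, the epsilon subunit, was lower in the positive cells of both lines. It was at 28.1, 13.2 and 29.5 RPKM in negative and 6.705, 8.71 and 9.53 RPKM in positive SW1990 samples, and at 21.8, 14.96 and 16.3 RPKM in negative and 7.39, 5.32 and 9.99 RPKM in positive CFPAC-1 samples. Neither line showed an overlap between sorts. Mean RPKM was 2.84-fold lower in positive SW1990 cells (23.6 ± 9.05 to 8.31 ± 1.45, SD, n = 3) and 2.34-fold lower in positive CFPAC-1 cells (17.7 ± 3.62 to 7.57 ± 2.34, SD, n = 3). The log2 differences were -1.42 and -1.24. At the same sort the 2 lines overlapped, so that GABRE did not separate SW1990 from CFPAC-1 while GABRP did. Negative SW1990 replicate 2 was low, and without it the SW1990 log2 difference of GABRE was -1.80.

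GABRA3, the alpha-3 subunit and a classic benzodiazepine-sensitive alpha chain, was at the limit of the depth. Negative SW1990 samples held 8, 2 and 2 reads and positive ones 0, 0 and 0, while negative CFPAC-1 samples held 9, 8 and 4 reads and positive ones 8, 0 and 2. The highest value was 0.166 RPKM. With no read in the positive SW1990 samples and few in the other groups, no fold is given. GABRA3 did not reach the mean of 0.1 RPKM required for a fit, which the other 3 receptor genes did. Its groups overlapped, except that the SW1990 negative samples all held reads and the positive ones held none.

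GABBR1, the ligand-binding chain of the GABA-B receptor, separated the lines and not the sorts. In SW1990 it was at 15.35, 6.61 and 14.55 RPKM in negative and 6.17, 8.25 and 9.06 RPKM in positive samples. In CFPAC-1 it was at 1.67, 1.42 and 1.56 RPKM in negative and 2.12, 1.06 and 1.41 RPKM in positive samples. Sorts overlapped in both lines (log2 differences of -0.55 in SW1990 and -0.06 in CFPAC-1), whereas every SW1990 sample lay above every CFPAC-1 sample. The SW1990 mean was 7.86-fold higher among negative cells (12.2 ± 4.83 against 1.55 ± 0.123 RPKM, SD, n = 3) and 5.11-fold higher among positive cells (7.83 ± 1.49 against 1.53 ± 0.540 RPKM). The overlap in SW1990 came from negative replicate 2, the same sample that was low for GABRE. Without it the log2 difference of GABBR1 was -0.94. GABBR2, the obligate partner, was at 0.374 ± 0.0614 RPKM in negative and 0.216 ± 0.0705 in positive SW1990 cells (SD, n = 3) and had no read in any CFPAC-1 sample. Against a floor of 3 reads per library it was at least 14.1-fold higher in negative SW1990 than in negative CFPAC-1 cells, and at least 4.16-fold higher in positive cells. The neuron marker sum, mostly SNAP25 (15.0 to 19.9 RPKM), was also highest in negative SW1990 cells. SYT1 of the same list was higher in CFPAC-1 than in SW1990 (0.396 to 0.588 against 0.0212 to 0.11 RPKM in negative cells). The part of these markers in the GABBR1 and GABBR2 values was not tested.

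Over the 19 GABA-A subunit genes listed, GABRP and GABRE made up nearly all of the RNA. Of the 19, 5 had no read in any sample and 9 had at most 10 reads in every sample. The summed RPKM was 14.3 to 31.4 in negative SW1990 samples, of which GABRE gave 92.4 to 94.9% and GABRP 0.496 to 2.28%. In positive SW1990 samples the sum was 11.1 to 27.0, with GABRP at a median of 52.0% (35.1 to 62.5%) and GABRE at a median of 43.4% (35.3 to 60.4%). The SW1990 sums overlapped between sorts, while the shares did not. In CFPAC-1, GABRP gave 95.6 to 98.1% of 563 to 966 RPKM in negative samples and 93.1 to 97.3% of 139 to 257 RPKM in positive samples. These shares restate the values that the genes were selected on, and RNA shares say nothing of which subunits assemble.

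GABRD, the delta subunit of extrasynaptic receptors, was at 0.582 ± 0.237 RPKM in negative SW1990 cells (SD, n = 3), at least 7.27-fold above negative CFPAC-1 cells. GABRR2, a rho subunit, did not pass the test in either sort or between lines, at 0.372 ± 0.142 RPKM at most (negative SW1990, SD, n = 3). GABRD was called between lines (limma, log2 1.87, adjusted p = 1.04e-05) and not between sorts, and the line call was lost with a pseudocount of 1 (0.49). No gamma subunit held more than 2 reads in a sample, and GABRA2, an alpha subunit, reached 10.

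**Figure D2:**
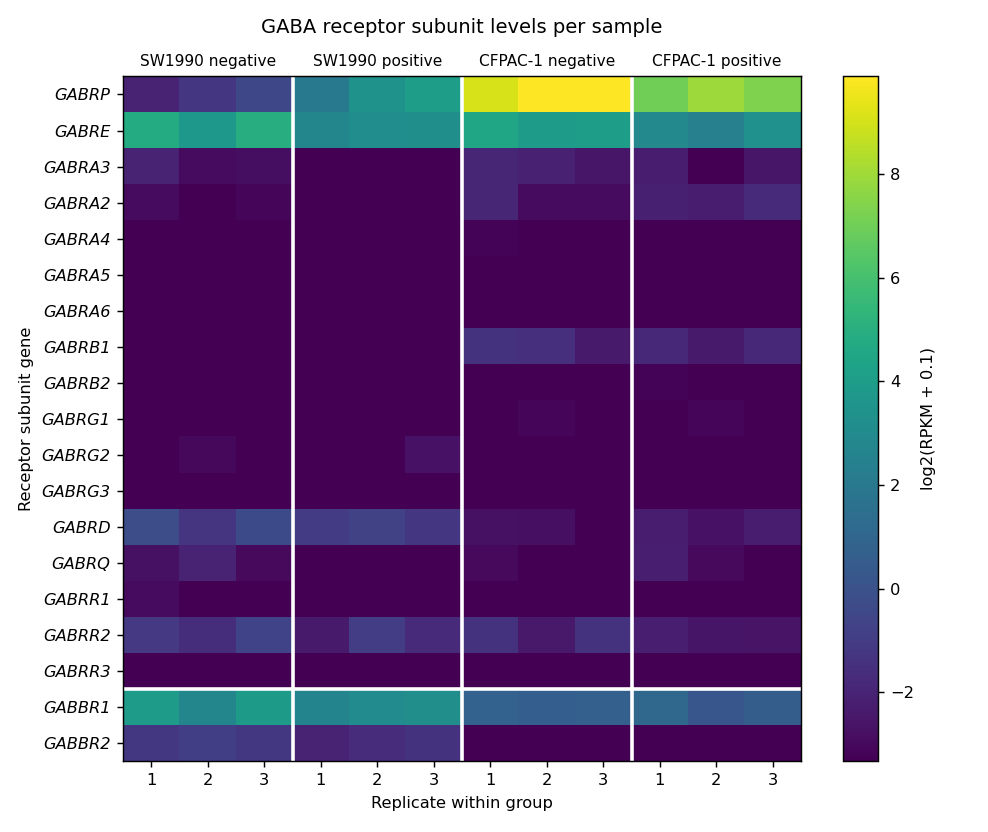
Heat map of log2(RPKM + 0.1) for 17 GABA-A subunit genes (upper rows) and the GABA-B genes (lower rows) in the 12 samples, ordered by group and replicate. GABRP is brightest in CFPAC-1, GABRE is present in every sample, and GABBR1 and GABBR2 are brighter in SW1990.

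The machinery around the receptors was read from 7 lists of 61 further genes, of which 33 passed the filter on low values and 8 were at 0 in every sample. A gene was called between sorts when it differed over 2-fold with an unadjusted p under 0.01 (limma on log2(RPKM + 0.1)). In SW1990, 4 of the 33 were called, 1 higher and 3 lower in positive cells. Centring the samples on their medians gave 5 calls, 2 higher and 3 lower. The main count is 12.1%, against 12.1% of all 16236 genes tested, and the median log2 change of the 33 was -0.01 against -0.04 over all genes. In CFPAC-1, 2 of the 33 were called, both lower in positive cells, or 6.06% against 9.78% of all genes, with a median of -0.05 against 0.05. The shares of pathway genes called were thus near or under those of the whole table.

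The GABA-B effectors held 2 of the SW1990 calls. GNAO1, the Go alpha subunit, fell by 1.63 on the log2 scale (SE 0.243, adjusted p = 0.000322, limma), from 0.656 ± 0.135 to 0.142 ± 0.0198 RPKM (SD, n = 3). GNAI1, a Gi alpha subunit, fell by 1.20 (SE 0.191, adjusted p = 0.000528), from 5.91 ± 0.658 to 2.52 ± 0.372 RPKM. With a pseudocount of 1 both were under 2-fold, at -0.53 for GNAO1 and -0.97 for GNAI1, and were not called. Neither was called in CFPAC-1. There GNAO1 was higher in every positive sample (8 to 24 reads) than in any negative one (2 to 6 reads), 3.52-fold by means and 0.66 on the log2(RPKM + 0.1) scale, and GNAI1 was at 20.1 ± 0.291 and 18.9 ± 5.30 RPKM. The neuron marker sum went from 15.9 to 21.0 RPKM in SW1990 negatives to 3.06 to 5.81 RPKM in SW1990 positives. Most of this sum was SNAP25 (15.0 to 19.9, then 2.42 to 4.8 RPKM). The ductal sum was higher in the positives, as given above. Their part in these values was not tested. GNAI2, the most abundant of the 4 effectors fitted, was at 90.7 ± 6.54 and 78.9 ± 1.44 RPKM in SW1990 and was not called in either line.

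Among trafficking and anchoring genes, GABARAPL1, a relative of the receptor-associated protein GABARAP that also serves in autophagy, fell by 1.51 in positive SW1990 cells (SE 0.297, adjusted p = 0.00228, limma). NLGN2, an adhesion protein of inhibitory synapses, fell by 1.66 in positive CFPAC-1 cells (SE 0.161, adjusted p = 3.58e-05), from 11.7 ± 0.721 to 3.65 ± 0.595 RPKM (SD, n = 3). Gephyrin (GPHN), the scaffold of inhibitory synapses, was at 3.92 to 8.59 RPKM over the group means and was not called. NLGN2 in SW1990 had a log2 change of -0.74, short of 2-fold.

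The chloride gradient that sets the effect of a GABA-A channel is held by cation-chloride cotransporters. SLC12A2 (NKCC1), which loads chloride, was at 3.815 to 4.74 RPKM in the negative SW1990 samples, at 7.23 to 9.025 RPKM in the positive ones, and at 30.6 to 41.2 and 23.3 to 31.5 RPKM in CFPAC-1. SW1990 sorts did not overlap, and its log2 change of 0.96 was just short of 2-fold. SLC12A7 (KCC4), which extrudes chloride, rose by 1.01 in positive SW1990 cells (SE 0.133, adjusted p = 0.000127, limma), from 8.23 ± 1.64 to 16.5 ± 1.66 RPKM (SD, n = 3). This call sat at the 2-fold threshold and was lost without negative SW1990 replicate 2 (0.86), positive SW1990 replicate 2 (0.97) or positive SW1990 replicate 3 (0.96). SLC12A5 (KCC2), the neuronal extruder, had at most 1 read in a sample.

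No gene of GABA synthesis, breakdown or uptake was called between sorts, but only 6 were fitted. Of all genes, 12.1% were called in SW1990 and 9.78% in CFPAC-1, so the lack of calls among so few says little. GAD1, which makes GABA from glutamate, was at 0.656 to 1.88 RPKM over the 12 samples, with log2 changes of 0.03 in SW1990 and -0.45 in CFPAC-1, and GAD2 had no read. None of the 5 transporters was fitted, and none held more than 6 reads in a sample. ABAT, the transaminase that breaks GABA down, was lower in SW1990 than in CFPAC-1 (log2 -1.63, SE 0.170, adjusted p = 2.53e-06, limma), a call lost with a pseudocount of 1 (-0.73). Though not called between sorts, ABAT was lower in the positive cells of both lines without overlap. By means it was 2.25-fold lower in SW1990 (log2 -0.86, adjusted p = 0.0187, limma) and 1.58-fold lower in CFPAC-1 (log2 -0.61, adjusted p = 0.0649). In all, 12 of the 33 were called between lines, 6 in each direction, or 36.4% against 32.5% of all genes.

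Whether a pathway gene responded differently to the sort in the 2 lines was tested as the log2 change in SW1990 minus that in CFPAC-1, called at an adjusted p under 0.05. There were 11 calls among the 33, or 33.3% against 26.9% of all genes, 7 with the higher change in SW1990 and 4 with the lower. Over all genes this difference had a median of -0.15, which median centring moved by 0.149. The median over the 33 was 0.02. The chloride transporters SLC12A2, at 1.37 (SE 0.208, adjusted p = 0.000571, limma), and SLC12A7, at 1.08 (SE 0.187, adjusted p = 0.00138), lay on the higher side. SLC12A4 (KCC1) was at -0.56 and was not called. TRAK1, a kinesin adaptor for cargo transport, was at 1.38 (SE 0.209, adjusted p = 0.000571), and its relative TRAK2 at -0.70 (SE 0.116, adjusted p = 0.00103). NLGN2 was at 0.93 (SE 0.227, adjusted p = 0.0104), GNAO1 at -2.29 (SE 0.344, adjusted p = 0.000539) and GNAI1 at -1.07 (SE 0.270, adjusted p = 0.0124). The call for HAP1, a huntingtin-associated transport protein (0.97, adjusted p = 0.032), was lost when any of several single samples was left out.

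**Figure D3:**
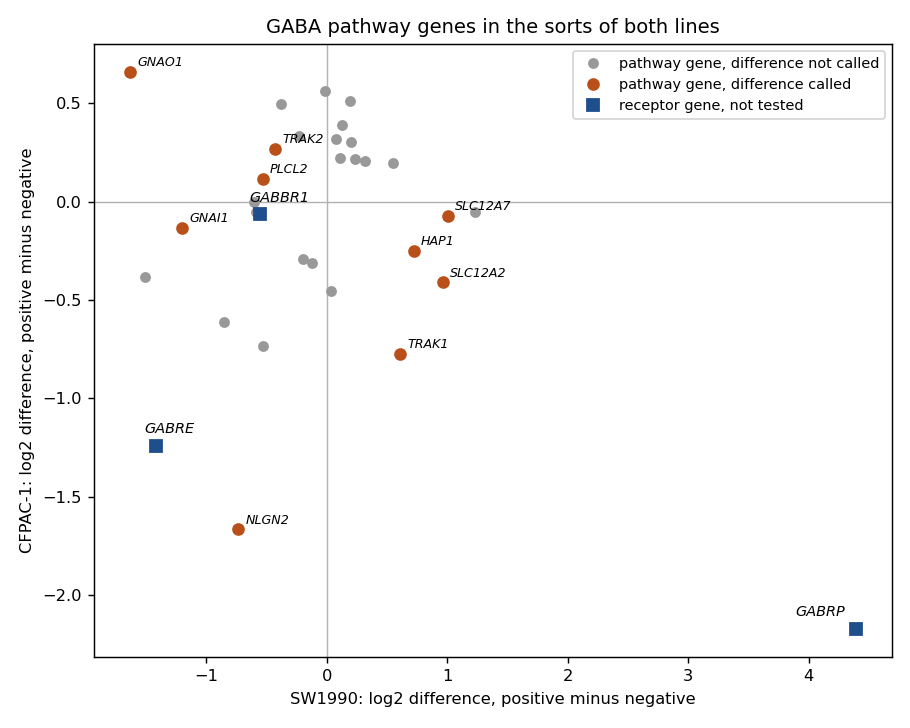
Log2 difference between positive and negative cells in SW1990 (horizontal axis) and CFPAC-1 (vertical axis) for 29 of the fitted pathway genes (circles, red where the difference between lines was called) and for the 3 fitted receptor genes (squares, not tested). GABRP stands at 4.39 and -2.17 and GABRE at -1.42 and -1.24. SLC12A2, SLC12A7, TRAK1 and HAP1 also lie to the right of 0 and below 0. None of them was called between the CFPAC-1 sorts (-0.41, -0.07, -0.77 and -0.25). TRAK1 was short of 2-fold in both lines, but its sorts did not overlap in either (limma, adjusted p = 0.00886 in SW1990 and 0.00198 in CFPAC-1).

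The genes whose pattern was most like that of GABRP were ranked by Pearson's r of log2(RPKM + 0.1) over the 12 samples, among 13266 genes with a mean of at least 1 RPKM. These r describe samples that share libraries, lines and sorts, and carry no test. The 5 highest were PPP2R5A (0.996), ELF3 (0.995), GRB7 (0.994), LRG1 (0.994) and TMPRSS4 (0.993). ELF3, an epithelial ETS factor, had a mean of 17.1 RPKM in negative and 45.2 RPKM in positive SW1990 cells, and of 171 and 111 RPKM in CFPAC-1. TMPRSS4, a membrane serine protease, had 0.405 and 5.50 RPKM in SW1990 and 192 and 87.1 RPKM in CFPAC-1. GABRP covered a wider range than any of the 5.

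With the mean of each line subtracted, which leaves the sort and the spread between sorts, the highest were TMEM92 (0.987), PPP2R5A (0.979), GRB7 (0.979), TMC4 (0.977) and LRG1 (0.977). With a pseudocount of 1 only 1 of the 5 stayed in each list, GRB7, so the ranks among such high values are not firm. For GABRE the highest r over the 12 samples were those of MMP19 (0.951), PCGF2 (0.937) and TMEM198B (0.934), and after the line means were subtracted those reported here were ARPC4-TTLL3 (0.974) and RALGDS (0.974). For GABBR1 they were MRI1 (0.994), NEAT1 (0.993) and ZNF587 (0.993), and then NEAT1 (0.980), ATAT1 (0.969) and LOC338799 (0.959). NEAT1, a nuclear long noncoding RNA, was at 958, 327 and 845 RPKM in negative SW1990 samples, low in the same replicate 2 as GABBR1. For GABRA3, whose values are a few reads, they were TCEAL3 (0.934), HNRPDL (0.886) and APBB3 (0.885), and then ZNF3 (0.932), TCEAL3 (0.913) and PPOX (0.901).

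**Figure D4:**
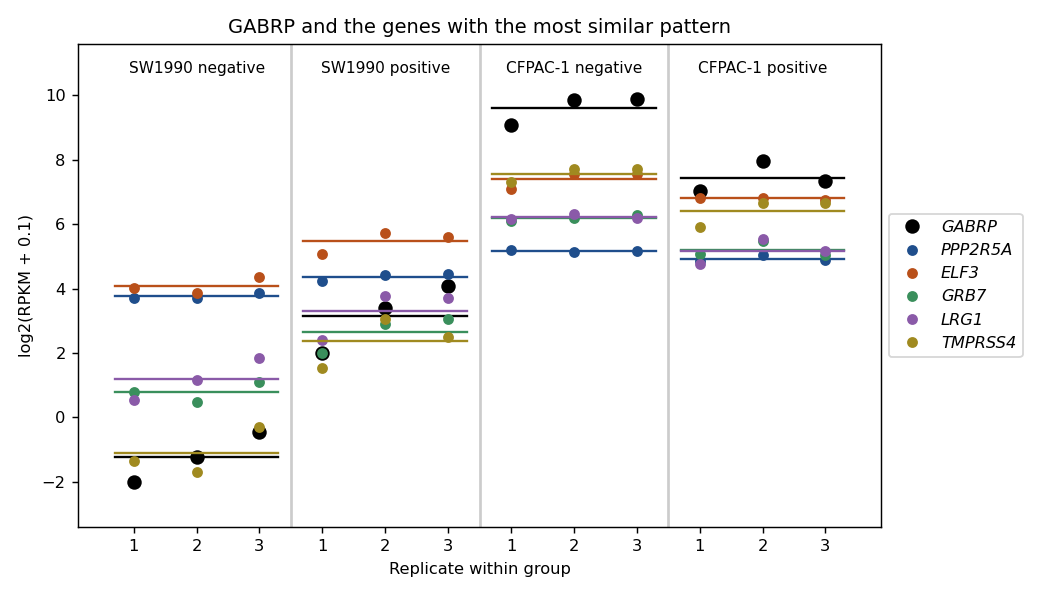
Log2(RPKM + 0.1) of GABRP (black) and of the 5 genes with the highest Pearson r over the 12 samples, by group and replicate, with lines at the means of the log2 values. All 6 genes are lowest in negative SW1990 and highest in negative CFPAC-1 samples, and GABRP has the widest span.

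Genes within 250 kb of the receptors were read for a shared direction. RANBP17, the one fitted neighbour of GABRP, had log2 changes of -0.03 in SW1990 (adjusted p = 0.944, limma) and -0.81 in CFPAC-1 (adjusted p = 0.0113) and was not called, at group means of 1.02 to 1.83 RPKM. MIR452, a microRNA hairpin inside the GABRE interval on the same strand, was called lower in positive cells of both lines, but on at most 6 reads in any sample, and reads of the hairpin and of unspliced GABRE RNA cannot be told apart. Near GABRA3, MAGEA6 had no read in SW1990 and rose by 2.12 in positive CFPAC-1 cells (adjusted p = 9.43e-05), from 0.912 ± 0.171 to 4.35 ± 1.13 RPKM (SD, n = 3), a value that near-identical MAGE genes can share. UBD, whose interval overlaps the end of GABBR1 on the same strand, was at 1.87 ± 0.458 and 4.98 ± 3.41 RPKM in CFPAC-1 and was not called there (adjusted p = 0.0567). HCG4 rose by 1.24 in positive SW1990 cells (adjusted p = 4.79e-05), and HLA-F, HLA-F-AS1 and IFITM4P, also near GABBR1, were not called in either line.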

How the data were processed

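RNA-seq of GCTM-5 sorted SW1990 and CFPAC-1 cells was analysed from 1 table with a column per sample. According to the study's methods, the authors aligned reads to hg19 (GRCh37) with counting and scaling in QuasR, and the deposited values are RPKM, normalised for library size and gene length. The gene annotation, use of strand, treatment of reads with several matches and QuasR version are not given in the sources used here. The labels and the paper name different library kits.

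Reads were worked back from the RPKM with single-exon gene lengths (GENCODE 44), to within 0.01 of a read. Whether a read or a pair was counted is not known, and low genes may be given too few reads by a common factor. Read floors cover counting error only.

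The 16236 of 23346 genes whose mean RPKM reached 0.1 were fitted as log2(RPKM + 0.1) with limma 3.58.1 in R 4.3.3, with 4 group means and an intensity trend, 2-sided, with Benjamini-Hochberg adjustment over all genes. Such fold changes understate those of low genes. The fit was tested on simulated data. A gene was called over 2-fold at an unadjusted p under 0.01, which is how the study's thresholds were read, and the difference between lines was called at an adjusted p under 0.05. TCC, used in the study, was not used.

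Some genes are counted within lists but not reported here. The members, lists and rules were chosen with earlier results of these data known. Named genes are the members, the called pathway genes (the 3 with the largest change where a list held over 5, others being named with the values that needed them), subunits of highest level, the 5 or 3 genes most like each member and fitted neighbours. Alternatives were other pseudocounts and filters, median centring, a replicate block, voom on recovered reads, eBayes without a trend, an adjusted p criterion and leaving out each sample. Tables and plots were made in Python 3.11.15 (pandas 2.3.3, numpy 2.4.6, matplotlib 3.10.9).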

Additional observations from a re-analysis of the deposited data

Results flagged for a closer look

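GABRP was higher in positive SW1990 samples and lower in positive CFPAC-1 samples without overlap in either line, with log2 changes that differed by 6.56. It was selected for this pattern, and the difference was not tested.

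The change with the sort differed between the lines by limma's test of the difference itself (change in SW1990 minus change in CFPAC-1, log2) for several pathway genes. The values reported here were 1.38 for TRAK1, 1.37 for SLC12A2, 1.08 for SLC12A7, 0.97 for HAP1, 0.93 for NLGN2, -0.65 for PLCL2, -0.70 for TRAK2, -1.07 for GNAI1 and -2.29 for GNAO1. The call for PLCL2 was lost without any of 11 of the 12 samples (adjusted p = 0.0515 to 0.0946, limma) and that for HAP1 without any of 6. GNAO1 had at most 24 reads in a CFPAC-1 sample.

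Of the neighbours, UBD was at -2.09 (adjusted p = 0.0308, limma), with positive CFPAC-1 samples at 2.96, 3.05 and 8.92 RPKM and at most 8 reads in a SW1990 sample. MAGEA6 was at -2.12 (adjusted p = 0.000903), but it had no read in SW1990, where no response could be measured, so this value restates its change in CFPAC-1.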

How the results depend on the processing

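Of 192 alternative values of the receptor genes' log2 differences, 7 moved by more than the spread between replicates. With a pseudocount of 1, GABRP was at 2.89 in SW1990 with a difference between lines of 5.05, and GABRA3 at -0.10 in SW1990. With 0.01, GABRA3 was at -2.76 in SW1990, -1.46 in CFPAC-1, -1.30 for the difference and -1.56 between lines. Leaving out single samples gave GABRP log2 differences of 3.93 to 4.975 for SW1990 and of -2.44 to -1.96 for CFPAC-1.

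Among 572 alternative fits of the 29 pathway calls, 527 stayed called, 45 did not and 0 changed direction. A pseudocount of 1 left 1 call in SW1990, ending those for GNAO1 (-0.53), GNAI1 (-0.97) and SLC12A7 (0.93), and 7 between lines, where ABAT (-0.73), GABRD (0.49), GABBR2 (0.37) and GNAO1 (0.365) were among those lost, and a mean of at least 1 RPKM left 7 between lines. Leaving out single samples gave 3 to 5 calls in SW1990, 2 in CFPAC-1, 12 to 14 between lines and 8 to 15 for the difference. Centring ended the call for PLCL2 (-0.50, difference), as did leaving out any of 11 samples. For the genes most like GABRP, a pseudocount of 1 kept 1 of 5 over the samples and 1 of 5 with line means subtracted. For most of these changes the cause was not tested.

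Positive and negative samples share replicate numbers, but whether same-numbered samples came from the same sort run is not stated in the sources used here. With 3 samples in a group, the correlations of their deviations cannot settle whether they were paired. Deviations of same-numbered samples correlated at 0.329, 0.058 and 0.224 in SW1990 and -0.048, -0.003 and -0.074 in CFPAC-1, and 3 of 12 samples correlated best with their own number. With a replicate block there were 4 calls in SW1990, 2 in CFPAC-1, 12 between lines and 12 for the difference, where HAP1 (0.97) and PLCL2 (-0.65) were no longer called. Depth limits GABRA3, GABBR2, GNAO1 and most GABA-A subunits.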
